A study of Mus musculus with 6 samples.

Results

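The 10 genes described here mark T cells and natural killer (NK) cells in bulk liver RNA. They were chosen by symbol, 10 of the 56674 rows of the count table, and comprise constant regions of the T cell receptor (Trac, Trbc1 and Trbc2), CD3 chains (Cd3e and Cd3g), coreceptors (Cd4 and Cd8a), granule proteins of cytotoxic cells (Nkg7 and Gzmb) and the chemokine gene Ccl5. The livers came from male C57BL/6 mice, a common inbred strain, aged 71 weeks. One group of 3 samples had eaten chow containing polypropylene microplastic (PP-MP) and the other group of 3 samples normal chow (control). The mice carried no allele or agent that the labels name besides the diet. The treatment text reads PS-MP for every sample, whereas the titles, which set the groups used here, separate PP-MP from normal food. The sources used here state no dose, particle size or time on the diet. No label says that the 3 samples of a group were separate animals, so each p-value measures a spread between samples that may be technical.

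An αβ T cell recognises peptide through a receptor whose 2 chains each end in a constant region, encoded by Trac for the α chain and by Trbc1 or Trbc2 for the β chain. The receptor has no signalling tail of its own and is assembled with CD3 chains, which pass the signal on. CD4 marks helper and regulatory T cells, and CD8 marks cytotoxic T cells, which kill target cells with granzymes, as NK cells do. The liver holds many NK and other innate-like lymphocytes, and activated T cells tend to gather there with age. In bulk RNA, fewer cells of a type and less RNA per cell cannot be told apart.

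The β chain has a pair of near-identical constant region genes, shown here because they limit what the counts of Trbc1 and Trbc2 can say. The last 300 coding bases (positions 219 to 518), from the GENCODE M21 transcripts (chromosome 6, plus strand, GRCm38), are printed 5′ to 3′, with the bases that differ between the genes in capitals.
Trbc1: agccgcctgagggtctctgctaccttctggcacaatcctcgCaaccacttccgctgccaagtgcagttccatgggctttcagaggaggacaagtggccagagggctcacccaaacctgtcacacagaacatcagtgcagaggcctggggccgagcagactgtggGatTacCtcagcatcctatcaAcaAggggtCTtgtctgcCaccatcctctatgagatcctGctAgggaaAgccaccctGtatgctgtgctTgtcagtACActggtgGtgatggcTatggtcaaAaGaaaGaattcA
Trbc2: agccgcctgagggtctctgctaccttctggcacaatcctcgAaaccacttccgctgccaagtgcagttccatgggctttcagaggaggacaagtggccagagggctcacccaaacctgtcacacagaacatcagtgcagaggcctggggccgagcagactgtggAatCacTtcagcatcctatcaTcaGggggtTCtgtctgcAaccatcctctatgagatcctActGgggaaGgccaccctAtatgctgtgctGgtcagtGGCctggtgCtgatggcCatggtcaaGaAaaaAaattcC
The genes differ at 23 of 518 coding bases (95.6% identity). The first exon, 375 bases long, holds 1 of these differences, and its first 259 bases are the same in both. A read from that stretch fits both genes equally, and the sources used here do not say how such reads were counted. The remaining 143 bases hold 22 differences. Counts of Trbc1 and Trbc2 are therefore reported as uncertain, singly and as their sum.

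Total counts ranged from 68357478 to 112566641 per library. Counts were scaled with edgeR's TMM factors to CPM, a count per 1000000, so that 1 count was worth 0.00956 to 0.0166 CPM. Control 2 stood apart in its share of the 18S ribosomal RNA gene Rn18s-rs5, 11.2% of counts, against 0.655% to 0.750% in PP-MP libraries and 1.15% and 2.92% in the other control libraries. PP-MP 1 stood apart in neutrophil and macrophage genes (values given with the leukocyte markers). The 5 hepatocyte markers (Alb, Apoa1, Ttr, Cps1 and Hnf4a) together made 62184 to 72758 CPM in PP-MP and 55168 to 66508 CPM in control livers, so that the liver label held. All 10 lymphocyte markers had counts in every library, between 11 and 263, and all 10 passed the filter on low counts. Their mean levels, 0.366 to 2.24 CPM, placed them between the 17.8th and 40.7th percentile of the 18284 genes tested. At these depths the counting error alone is wide: 11 counts carry an exact Poisson 95% interval of 5.49 to 19.7 and 263 counts one of 232 to 297, which cover counting error only.

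The T cell and NK cell markers had lower fitted levels in PP-MP than in control livers for 10 of 10 genes, and none passed the test. None of the 10 marks NK cells alone. In a separate list of NK cell genes, described below, 9 of 11 tested genes had higher fitted values, with 0 called. The median log2 fold change of the 10 markers was −0.51, beside 0.03 over all genes tested. Single values ran from −1.77 (Trbc2) to −0.21 (Nkg7). A fitted fold change below 0 was found for 47.4% of all genes tested. With edgeR's quasi-likelihood test, 0 of 10 passed an adjusted p of 0.05 in either direction (adjusted p = 0.28 to 0.81), where 0.00547% of all genes were called lower and 0.00547% higher, 0.0109% together. At an unadjusted p under 0.05 edgeR gave 3 of 10 (Trac, Trbc2 and Cd3e, all lower), against 5.81% of all genes lower and 8.05% higher. DESeq2 called 0 of 10, against 1.87% of all genes called lower and 2.39% called higher, with Trac nearest at an adjusted p of 0.078. Every PP-MP library lay below every control library for 3 of 10 (Trac, Cd3e and Ccl5), against 9.79% of all genes tested, and the reverse for 0 of 10, against 12.2%. This separation depended on the scaling: scaled to total counts alone, without TMM factors, it held for 1 of 10 (Trac), against 2.59% of all genes. With library totals the median of all genes tested moved by 0.23 to 0.26, the marker median was −0.27, and 9 of 10 fitted values were lower, Nkg7 standing at 0.02. Without PP-MP 1 the marker median was −0.80. Summed over the 10 genes, levels were 8.23, 5.99 and 6.00 CPM in PP-MP 1, 2 and 3, against 9.12, 12.2 and 9.98 CPM in control 1, 2 and 3. These sums did not overlap, but scaled to total counts alone they did, at 9.04, 6.73 and 6.19 in PP-MP 1, 2 and 3, against 8.72, 10.7 and 9.27 in control 1, 2 and 3.

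**Figure D1:**
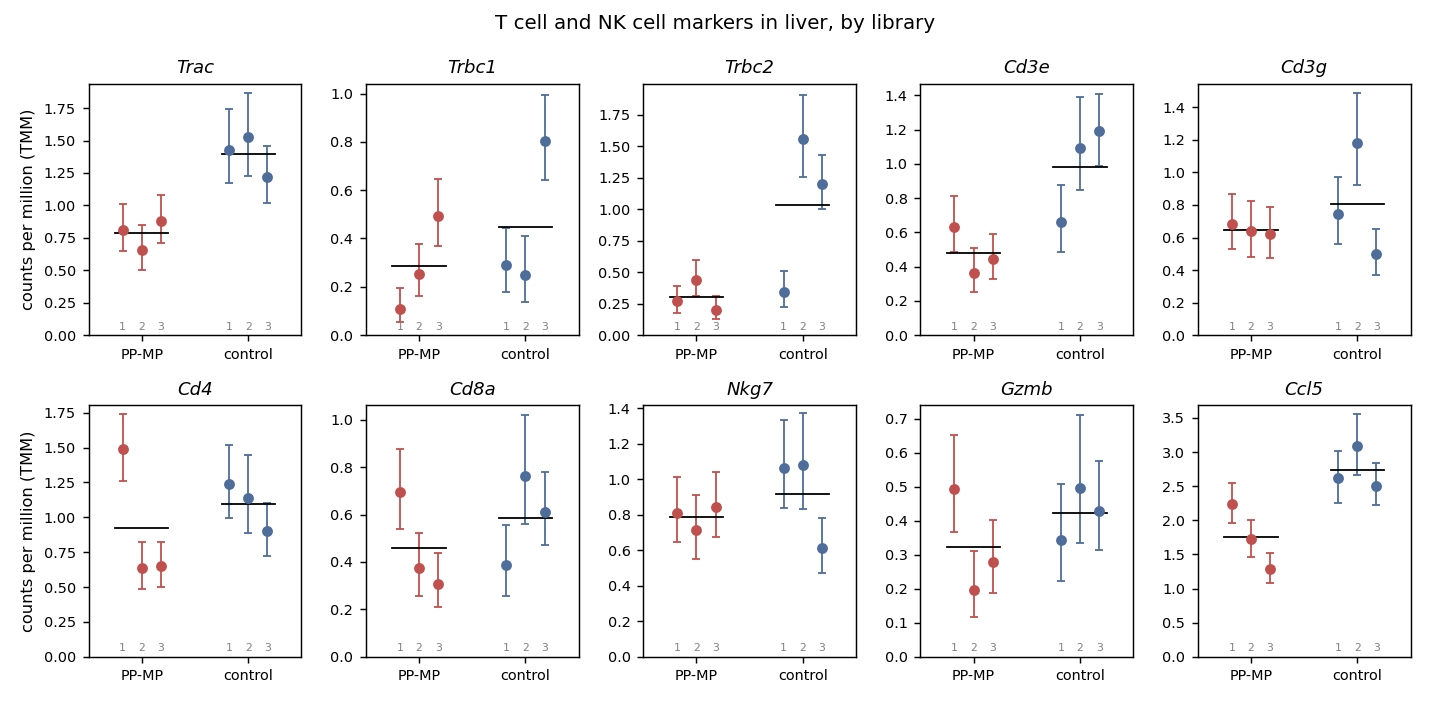
CPM (TMM-scaled, linear axes from 0) of the 10 markers in each library, PP-MP in red and control in blue, with replicate numbers along the foot. Points are single libraries, whiskers are exact Poisson 95% intervals of the count (counting error only) and black lines are group means. Trac, Cd3e and Ccl5 are the genes whose groups do not overlap at this scaling.

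Trac, the constant region carried by every αβ T cell, had 0.812, 0.659 and 0.880 CPM in PP-MP 1, 2 and 3, against 1.43, 1.53 and 1.22 CPM in control 1, 2 and 3, from 60 to 128 counts. All PP-MP libraries lay below all control libraries, with a gap wider than the range of either group. Means were 0.784 ± 0.113 CPM in PP-MP and 1.39 ± 0.155 CPM in control livers (SD, n = 3 each). The log2 fold change was −0.83 (SE 0.26, 95% interval −1.45 to −0.21; edgeR adjusted p = 0.28), and it stayed between −0.92 and −0.60 over the alternative settings.

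Trbc2, a β chain constant region, had 0.268, 0.439 and 0.203 CPM in PP-MP 1, 2 and 3, against 0.344, 1.56 and 1.20 CPM in control 1, 2 and 3. Control 2 and 3 were high, and control 1 lay among the PP-MP libraries, so the groups overlapped. The log2 fold change was −1.77 (SE 0.61, 95% interval −3.23 to −0.31; edgeR adjusted p = 0.31). Its near-copy Trbc1 had 0.109, 0.252 and 0.493 CPM in PP-MP 1, 2 and 3, against 0.289, 0.249 and 0.803 CPM in control 1, 2 and 3. The third library of each group was its highest for Trbc1, and the groups overlapped widely (log2 fold change −0.66, SE 0.70; edgeR adjusted p = 0.69). The Trbc1 value was 0.09 without control 3, −0.28 without PP-MP 1 and −1.32 without PP-MP 3. Summed, the β chain genes had 0.376, 0.692 and 0.696 CPM in PP-MP 1, 2 and 3, against 0.634, 1.81 and 2.01 CPM in control 1, 2 and 3. Control 1 again lay among the PP-MP libraries, and the sum had a log2 fold change of −1.33 (standard error 0.50, 95% interval −2.53 to −0.14; edgeR adjusted p = 0.33).

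Cd3e, a CD3 chain found on T cells of every kind, had 0.634, 0.362 and 0.445 CPM in PP-MP 1, 2 and 3, against 0.661, 1.09 and 1.19 CPM in control 1, 2 and 3. The groups did not overlap, but they did when scaled to total counts alone, and PP-MP 1 lay close to control 1. The log2 fold change was −1.03 (SE 0.37, 95% interval −1.91 to −0.14; edgeR adjusted p = 0.32). In GENCODE M21, 135 exonic bases of Cd3e are shared with a gene model on the opposite strand, and the sources used here give no strand setting for the counting. Cd3g, a further CD3 chain, had 0.684, 0.637 and 0.619 CPM in PP-MP 1, 2 and 3, against 0.744, 1.18 and 0.497 CPM in control 1, 2 and 3. The PP-MP libraries lay inside the control range, and the log2 fold change was −0.31 (SE 0.38; edgeR adjusted p = 0.73). It was 0.08 without control 2 and −0.54 without control 3.

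Cd4, the coreceptor of helper and regulatory T cells, had 1.49, 0.637 and 0.648 CPM in PP-MP 1, 2 and 3, against 1.24, 1.14 and 0.899 CPM in control 1, 2 and 3. PP-MP 1 was the highest library of all and PP-MP 2 and 3 the lowest, so that the log2 fold change of −0.24 (standard error 0.41; edgeR adjusted p = 0.81) became −0.77 without PP-MP 1. It was −0.03 without PP-MP 2, −0.04 without PP-MP 3 and −0.11 without control 1. Cd8a, a chain of the CD8 coreceptor that some dendritic cells of mice also carry, had 0.694, 0.373 and 0.309 CPM in PP-MP 1, 2 and 3, against 0.386, 0.763 and 0.612 CPM in control 1, 2 and 3. Its groups overlapped too (log2 fold change −0.35, SE 0.45; edgeR adjusted p = 0.74), and the value was −0.78 without PP-MP 1, −0.55 without control 1, −0.22 without PP-MP 2, −0.13 without PP-MP 3 and −0.10 without control 2. Cd8a made 31.8%, 37.0% and 32.3% of the counts of the pair in PP-MP 1, 2 and 3, against 23.7%, 40.0% and 40.5% in control 1, 2 and 3, or 33.7% ± 2.83 in PP-MP and 34.7% ± 9.54 in control livers (SD, n = 3 each). The difference in means was smaller than the spread in either group, and these shares take no account of the lengths of the transcripts.

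Nkg7, a granule membrane protein of NK cells and cytotoxic T cells, had 0.812, 0.713 and 0.841 CPM in PP-MP 1, 2 and 3, against 1.06, 1.08 and 0.612 CPM in control 1, 2 and 3. Control 3 was the lowest library and control 1 and 2 the highest. Nkg7 was the 1 marker of 10 with a 95% interval inside 2-fold in both directions (log2 fold change −0.21, SE 0.32, interval −0.98 to 0.55; edgeR adjusted p = 0.79), and its value was −0.07 without control 1, −0.06 without control 2, −0.14 without PP-MP 2 and −0.41 without control 3. Gzmb, the serine protease granzyme B, had 0.495, 0.198 and 0.280 CPM in PP-MP 1, 2 and 3, against 0.344, 0.498 and 0.430 CPM in control 1, 2 and 3. As with Cd4 and Cd8a, PP-MP 1 was high and the other PP-MP libraries were low (log2 fold change −0.38, SE 0.44; edgeR adjusted p = 0.72). Its value was −0.82 without PP-MP 1, −0.13 without PP-MP 2 and −0.23 without control 2.

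Ccl5, a chemokine made by activated T cells and NK cells and by some other cells, was the most abundant of the 10. It had 2.24, 1.72 and 1.29 CPM in PP-MP 1, 2 and 3, against 2.62, 3.09 and 2.51 CPM in control 1, 2 and 3. All PP-MP libraries lay below all control libraries, PP-MP 1 closest to them, but the groups overlapped when scaled to total counts alone. Means were 1.75 ± 0.477 CPM in PP-MP and 2.74 ± 0.304 CPM in control livers (SD, n = 3 each), a log2 fold change of −0.65 (standard error 0.27, 95% interval −1.30 to 0.01; edgeR adjusted p = 0.36).

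**Figure D2:**
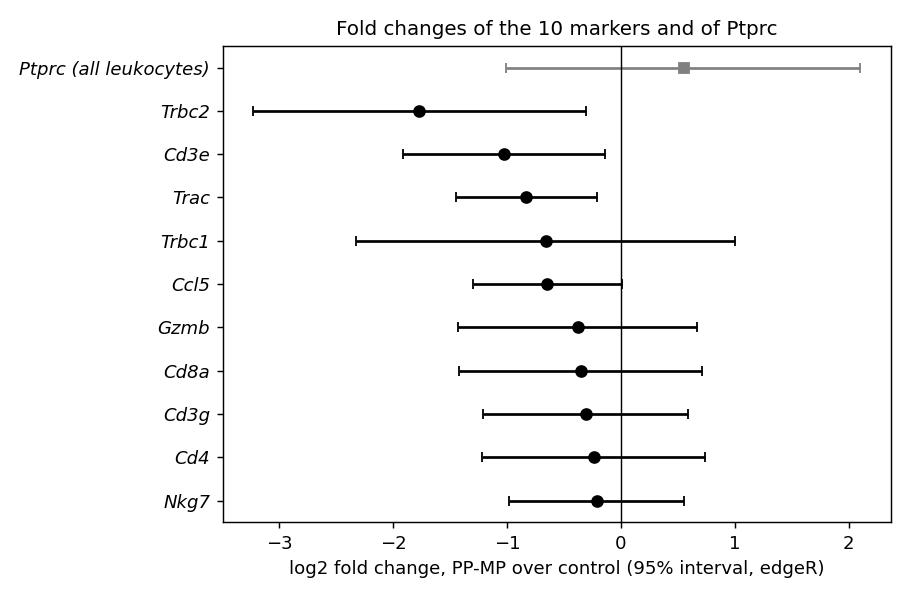
Log2 fold change of PP-MP over control for each marker (black circles) and for the general leukocyte gene Ptprc (grey square), with 95% intervals from the edgeR fit. The intervals of Trbc2, Cd3e and Trac lie below 0, those of the other markers and of Ptprc include 0, and no adjusted p passed 0.05.

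Levels between genes were compared per length, as CPM per kilobase of the longest coding transcript of GENCODE M21. Ccl5 was highest, at 3.29 ± 0.897 CPM per kilobase in PP-MP and 5.15 ± 0.572 in control livers (SD, n = 3 each). In PP-MP livers Nkg7 (0.895 ± 0.0759) and Trac (0.838 ± 0.121) followed, then Cd3g (0.632 ± 0.0328), Trbc2 (0.438 ± 0.176), Trbc1 (0.386 ± 0.263), Cd3e (0.329 ± 0.0953), Cd4 (0.297 ± 0.157), Gzmb (0.226 ± 0.107) and Cd8a (0.147 ± 0.0658). In control livers Trbc2 (1.50 ± 0.903) and Trac (1.49 ± 0.166) came next to Ccl5, then Nkg7 (1.04 ± 0.300), Cd3g (0.788 ± 0.337), Cd3e (0.671 ± 0.192), Trbc1 (0.607 ± 0.419), Cd4 (0.352 ± 0.0566), Gzmb (0.295 ± 0.0535) and Cd8a (0.188 ± 0.0607). Among neighbours in this order, the libraries of a group did not overlap below Ccl5 and between Trac and Cd3g in PP-MP livers, nor below Ccl5 and between Trac and Nkg7 in control livers. All other neighbours overlapped.

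The markers varied together only in part. Of the 45 pairs, 38 had a positive Pearson correlation of log2 CPM over the 6 libraries, with a median r of 0.46 and a range of −0.56 to 0.86. These libraries share their scaling, and the counts are small. The mean standardized log2 CPM of the 10 was −0.01, −0.84 and −0.68 in PP-MP 1, 2 and 3, and 0.22, 0.99 and 0.30 in control 1, 2 and 3, so PP-MP 1 lay nearest to control and control 2 was the highest. Among 11368 other named genes averaging 1 CPM or more, the 6 whose log2 CPM followed this mean most closely were Tram1 (r = 0.986), Fam117a (0.985), Fbxo33 (0.985), Ero1a (0.983), Cd276 (0.983) and G3bp2 (0.982), each over 6 libraries. They were picked as the highest of 11368 values over 6 libraries, so the size of r shows no link to the markers. In all 6 genes every PP-MP library lay below every control library, as for 9.79% of all genes tested. The mean that they were picked to follow separated the groups in the same way, so their separation is no further result. Tram1, a protein of the translocation channel of the endoplasmic reticulum, was at 77.0, 59.9 and 65.9 CPM in PP-MP 1, 2 and 3, against 79.3, 92.0 and 81.9 CPM in control 1, 2 and 3.

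The variable segments of the β chain gave a view of the receptor that the choice of markers did not use. Of the 35 Trbv rows, 14 had a count in some library, and 6, 6 and 6 had one in PP-MP 1, 2 and 3, against 6, 8 and 6 in control 1, 2 and 3. Summed Trbv counts were 40, 40 and 32 in PP-MP 1, 2 and 3, against 36, 69 and 45 in control 1, 2 and 3. Trbv13-2 led with 34.7% of all 262 Trbv counts, with 14, 10 and 14 counts in PP-MP 1, 2 and 3 and 16, 27 and 10 counts in control 1, 2 and 3. It was the leading segment in 5 of the 6 libraries, and in control 3 that place fell to Trbv29, a segment with 14 counts there and none elsewhere, singled out after its values were seen. Trbv13-1 had 6, 6 and 3 counts in PP-MP 1, 2 and 3 and 0, 19 and 10 in control 1, 2 and 3, and Trbv1 had 6, 9 and 3 in PP-MP 1, 2 and 3 and 10, 6 and 0 in control 1, 2 and 3. Trav rows held only 30, 10 and 8 counts in PP-MP 1, 2 and 3 and 26, 13 and 10 in control 1, 2 and 3. Trav11 and its duplicate Trav11d carried the same count in every library, 0, 4 and 2 in PP-MP 1, 2 and 3 and 2, 0 and 5 in control 1, 2 and 3. The depth does not allow use of single segments to be compared between diets.

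The balance of the β constant regions differed between libraries. Trbc1 made 28.9%, 36.5% and 70.8% of the counts of the pair in PP-MP 1, 2 and 3, against 45.7%, 13.8% and 40.0% in control 1, 2 and 3. The highest share, in PP-MP 3 (95% Wilson interval 59.5 to 80.1), and the lowest, in control 2 (8.52 to 21.5), stood apart from the other libraries of their groups by more than counting error. Group means were 45.4% ± 22.3 in PP-MP and 33.1% ± 17.0 in control livers (SD, n = 3 each), a difference smaller than either spread.

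**Figure D3:**
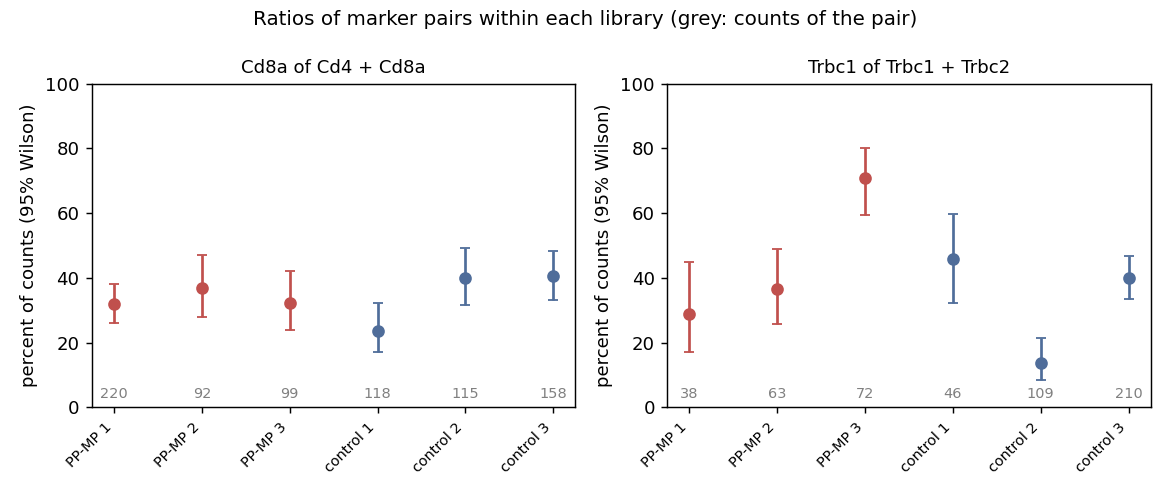
Share of Cd8a in the counts of Cd4 and Cd8a (left) and of Trbc1 in those of Trbc1 and Trbc2 (right), in percent, for each library, with 95% Wilson intervals that cover counting error only and the counts of the pair in grey. The Cd8a shares of the diets overlap, and PP-MP 3 and control 2 are the extremes of the Trbc1 share.

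Beyond the 10 markers, 7 lists of genes of the same cells held 103 genes, of which 79 were tested. Their fitted values were balanced, 39 higher and 40 lower in PP-MP livers, with a median log2 fold change of −0.01. With edgeR 0 of the 79 passed over all genes tested, and 5 higher (6.33%) and 4 lower (5.06%) were at an unadjusted p under 0.05, beside 8.05% and 5.81% of all genes. DESeq2 called 1 higher (Cxcl11) and 1 lower (Cxcl9), 1.27% each, beside 2.39% and 1.87% of all genes. These shares are near or below those of all genes. The lists carry the scaling shift described for the markers. With library totals their medians were −0.12 for receptor signalling, −0.28 for the lineage, −0.03 for innate-like, 0.67 for NK cell, 0.26 for cytotoxic, 0.54 for checkpoint and 0.43 for chemokine genes. In GENCODE M21 exons of Lcp2, Zbtb7b, Tnfrsf18, Cxcl11 and Cxcl16 overlap a gene model on the opposite strand, and those of Itga1 and Klrb1c one on the same strand, so their counts are uncertain.

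In the list of the receptor complex and its proximal signalling, 10 of 14 tested genes had lower and 4 higher fitted values (median log2 fold change −0.37), 0 with an unadjusted p under 0.05 and 0 called by edgeR or DESeq2. The direction rested on control 2, without which the median was 0.17. Cd3d, the remaining CD3 chain gene of the same locus as Cd3e and Cd3g, had 0.228, 0.318 and 0.541 CPM in PP-MP 1, 2 and 3, against 0.620, 1.06 and 0.574 CPM in control 1, 2 and 3. Its groups did not overlap (log2 fold change −1.04, SE 0.45, edgeR adjusted p = 0.37), but they did when scaled to total counts alone. Zap70, the kinase that binds phosphorylated CD3 chains, had 201, 105 and 7 counts in PP-MP 1, 2 and 3, against 674, 157 and 374 in control 1, 2 and 3, a wider range than Cd3e and again without overlap (log2 fold change −2.27, SE 1.04; edgeR adjusted p = 0.39). Cd6, a surface receptor of T cells, had 0.329 ± 0.0285 CPM in PP-MP and 0.544 ± 0.266 CPM in control livers (SD, n = 3 each; edgeR adjusted p = 0.49). Lcp2, an adaptor that myeloid cells and platelets use as well, was at 5.79 ± 3.56 CPM in PP-MP and 2.89 ± 0.256 CPM in control livers (SD, n = 3 each; edgeR adjusted p = 0.40).

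In the lineage list, 10 of 14 tested genes had lower and 4 higher fitted values (median −0.53), 2 of the lower ones with an unadjusted p under 0.05 and 0 called by edgeR or DESeq2. This median was −0.07 without control 2, and 0.03 over the lineage genes averaging 1 CPM or more. Bcl11b, a transcription factor required for T cell identity, had 0.297, 0.329 and 0.348 CPM in PP-MP 1, 2 and 3, against 0.496, 0.863 and 0.555 CPM in control 1, 2 and 3. All PP-MP libraries lay below all control libraries (log2 fold change −0.97, SE 0.35; edgeR adjusted p = 0.32). Runx3, a factor of the CD8 lineage, had 0.423 ± 0.200 CPM in PP-MP and 0.710 ± 0.0809 CPM in control livers (SD, n = 3 each; edgeR adjusted p = 0.45). Ccr7, a homing receptor of naive and central memory T cells, had 0.208 ± 0.0685 CPM in PP-MP and 0.439 ± 0.243 CPM in control livers (SD, n = 3 each; edgeR adjusted p = 0.46). Zbtb7b, the factor of the CD4 lineage, stood at 37.9 ± 9.13 CPM in PP-MP and 54.2 ± 6.21 CPM in control livers (SD, n = 3 each; edgeR adjusted p = 0.35). That level was far above that of any of the 10 markers. Of the innate-like list, 5 of 8 genes were tested (2 higher, 3 lower, median −0.25; 0 with an unadjusted p under 0.05 and 0 called by DESeq2), and Il23r had 0 counts in all libraries. The median was −0.09 without PP-MP 1 and −0.08 without control 1. Trgc1 and Trgc2, constant regions of the γ chain, were at 0.141 ± 0.0322 and 0.261 ± 0.0460 CPM in PP-MP and at 0.0941 ± 0.0343 and 0.309 ± 0.0862 CPM in control livers (SD, n = 3 each). Zbtb16, a factor of innate-like T cells that is also expressed outside lymphocytes, was at 5.07 ± 0.904 CPM in PP-MP and 6.74 ± 2.68 CPM in control livers (SD, n = 3 each; edgeR adjusted p = 0.62).

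Of 21 NK cell genes 11 were tested, with 9 higher and 2 lower fitted values (median log2 fold change 0.42), 1 higher with an unadjusted p under 0.05 and 0 called by edgeR or DESeq2. The median ran from 0.26 (without control 1) to 0.62 (without control 2) over left-out libraries. Klrk1, the activating receptor NKG2D, had 1.03, 1.24 and 0.938 CPM in PP-MP 1, 2 and 3, against 0.648, 0.531 and 0.784 CPM in control 1, 2 and 3. Every PP-MP library was above every control library (log2 fold change 0.70, SE 0.29; edgeR adjusted p = 0.36). Klrb1c, the NK1.1 antigen, was at 0.376 ± 0.0838 CPM in PP-MP and 0.237 ± 0.0294 CPM in control livers (SD, n = 3 each), again without overlap (log2 fold change 0.66, SE 0.37; edgeR adjusted p = 0.46). Itga1, an integrin of liver-resident lymphocytes that other liver cells express more widely, had 31.1, 25.9 and 23.6 CPM in PP-MP 1, 2 and 3, against 15.9, 22.9 and 21.3 CPM in control 1, 2 and 3 (edgeR adjusted p = 0.38). Itga2, an integrin of circulating NK cells and platelets, had 86, 23 and 15 counts in PP-MP 1, 2 and 3, against 16, 5 and 0 in control 1, 2 and 3 (edgeR adjusted p = 0.48). The 2 NK receptor genes Klra3 and Klra4 had 0 counts in all libraries.

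Cytotoxic effectors had 5 higher and 5 lower fitted values among 10 tested genes of 15 (median log2 fold change 0.02, and −0.22 to 0.15 over left-out libraries), 1 lower with an unadjusted p under 0.05 and 0 called by edgeR or DESeq2. Gzmk, a granzyme of memory CD8 T cells that accumulate in old mice, had 0, 0 and 5 counts in PP-MP 1, 2 and 3, against 9, 19 and 17 counts in control 1, 2 and 3. The groups did not overlap, and the fitted log2 fold change of −3.47 (standard error 1.15; edgeR adjusted p = 0.30) depends on the small count added to libraries at 0. Cst7, a cystatin of cytotoxic cells, was also lower in every PP-MP library, at 0.126 ± 0.0245 CPM in PP-MP and 0.298 ± 0.188 CPM in control livers (SD, n = 3 each, edgeR adjusted p = 0.40). Scaled to total counts alone, the Cst7 groups overlapped. Gzma, which NK cells hold, had 19, 9 and 16 counts in PP-MP 1, 2 and 3 and 17, 15 and 16 counts in control 1, 2 and 3 (edgeR adjusted p = 0.65). Tnfsf10, the death ligand TRAIL, was at 3.91 ± 1.34 CPM in PP-MP and 3.02 ± 0.755 CPM in control livers (SD, n = 3 each; edgeR adjusted p = 0.63). Gzmc, Gzmd, Gzme and Gzmf had 0 counts in all libraries.

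Activation and checkpoint receptors had 7 higher and 4 lower fitted values among 11 tested of 14 (median log2 fold change 0.32), 2 higher with an unadjusted p under 0.05 and 0 called by edgeR or DESeq2. The median was −0.08 without PP-MP 1, 0.07 without control 3, 0.12 without control 1 and 0.57 without control 2. Cd44, an adhesion receptor of memory T cells and of myeloid cells, had 17.8, 9.98 and 3.75 CPM in PP-MP 1, 2 and 3, against 3.31, 3.77 and 3.76 CPM in control 1, 2 and 3 (log2 fold change 1.54, SE 0.52; edgeR adjusted p = 0.30). PP-MP 1 and 2 were high, and PP-MP 3 lay within the control range. Cd244a, an NK cell and myeloid receptor, had 65, 17 and 16 counts in PP-MP 1, 2 and 3, against 7, 0 and 6 in control 1, 2 and 3 (edgeR adjusted p = 0.34). Tnfrsf18, a receptor of regulatory and activated T cells, had 0.674, 1.17 and 0.841 CPM in PP-MP 1, 2 and 3, against 0.661, 0.564 and 0.277 CPM in control 1, 2 and 3. The groups did not overlap, but PP-MP 1 lay very close to control 1 (log2 fold change 0.85, SE 0.42, edgeR adjusted p = 0.43). Tigit, an inhibitory receptor, had 14, 8 and 14 counts in PP-MP 1, 2 and 3 and 29, 32 and 3 counts in control 1, 2 and 3 (edgeR adjusted p = 0.53).

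Among chemokines and their receptors, 8 of 14 tested genes had higher and 6 lower fitted values (median 0.20), with 2 higher and 1 lower at an unadjusted p under 0.05 and 0 called by edgeR. The median was −0.09 without PP-MP 1, 0.02 without control 1 and 0.34 without control 2. Here lay the 2 calls of DESeq2, on interferon-induced chemokine genes. Cxcl9 had 4.92, 5.24 and 4.72 CPM in PP-MP 1, 2 and 3, against 8.09, 11.8 and 10.6 CPM in control 1, 2 and 3 (log2 fold change −1.04, SE 0.19; adjusted p = 0.18 by edgeR and 2.2e-04 by DESeq2). Cxcl11 had 3.68, 5.98 and 3.59 CPM in PP-MP 1, 2 and 3, against 1.82, 1.92 and 1.76 CPM in control 1, 2 and 3 (log2 fold change 1.27, SE 0.27; adjusted p = 0.19 by edgeR and 0.0023 by DESeq2). Neither pair of groups overlapped, and the fitted values of the 2 genes had opposite signs. Ccl3, a chemokine of myeloid cells and activated lymphocytes, was at 0.298 ± 0.0925 CPM in PP-MP and 0.131 ± 0.0194 CPM in control livers (SD, n = 3 each; edgeR adjusted p = 0.33). Cxcl16, the ligand of the liver-homing receptor CXCR6, was at 8.58 ± 4.30 CPM in PP-MP and 5.62 ± 0.165 CPM in control livers (SD, n = 3 each; edgeR adjusted p = 0.48).

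**Figure D4:**
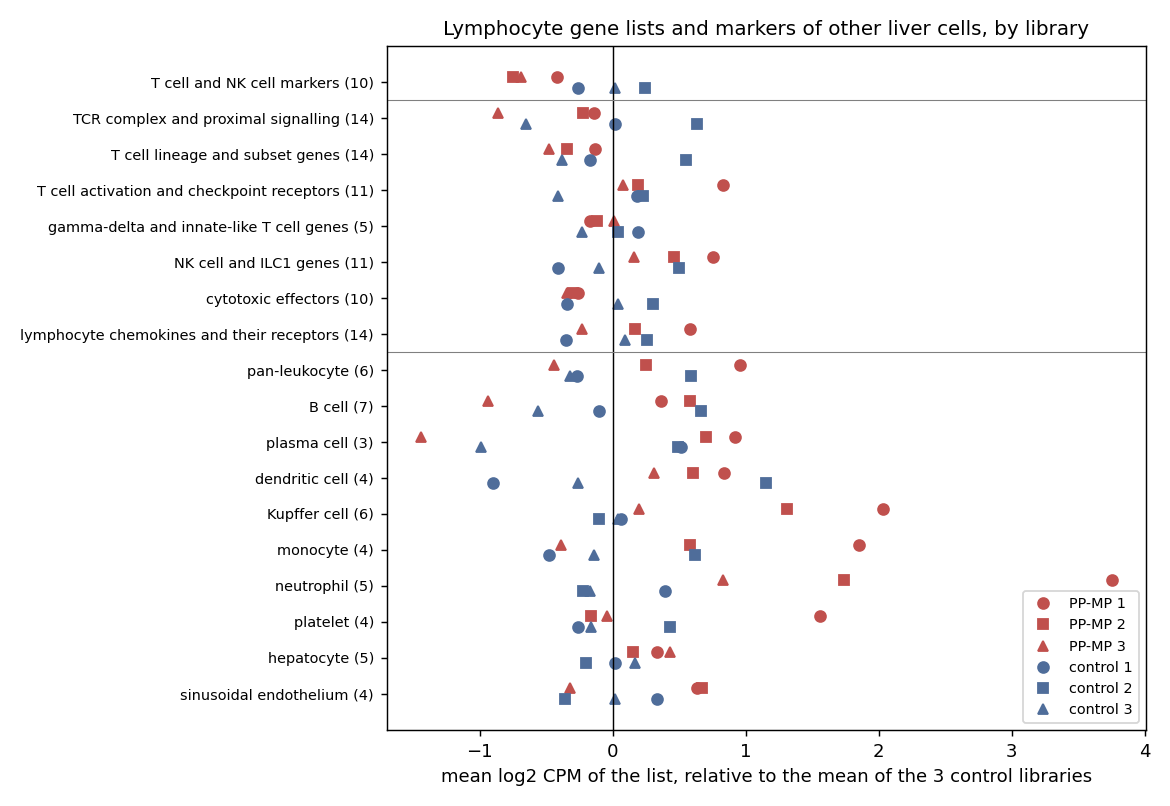
Mean log2 CPM of the tested genes of each list (their number in brackets), relative to the mean of the 3 control libraries, for the 10 markers (top), the 7 other lymphocyte lists (middle) and markers of other cells (bottom), with PP-MP in red and control in blue. The 10 markers stand at −0.42, −0.75 and −0.69 in PP-MP 1, 2 and 3 and at −0.26, 0.24 and 0.02 in control 1, 2 and 3, while neutrophil and Kupffer cell lists are highest in PP-MP 1.

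Markers of other cells were measured in the same libraries. The 6 pan-leukocyte genes had a median log2 fold change of 0.40, with summed levels of 20.7 to 58.8 CPM in PP-MP and 23.5 to 45.7 CPM in control livers. That median was −0.11 without PP-MP 1, 0.25 without control 1, 0.24 without control 3, 0.64 without PP-MP 3 and 0.73 without control 2. Ptprc, the CD45 antigen of all leukocytes, had 17.1, 8.30 and 4.19 CPM in PP-MP 1, 2 and 3, against 3.44, 12.4 and 4.48 CPM in control 1, 2 and 3 (log2 fold change 0.55, SE 0.65; edgeR adjusted p = 0.72). All 6 Kupffer cell markers had higher fitted values, with summed levels of 109 to 354 CPM in PP-MP and 92.9 to 122 CPM in control livers, highest in PP-MP 1. All 5 tested neutrophil markers did so too, with 3.10 to 24.0 CPM in PP-MP and 1.31 to 1.86 CPM in control livers, and the sixth, Ly6g, had 10, 3 and 0 counts in PP-MP 1, 2 and 3 and 0 counts in every control library. Monocyte markers summed to 43.0 to 168 CPM in PP-MP and 22.0 to 47.2 CPM in control livers, 3 of 4 higher. Median log2 fold changes of the Kupffer cell, neutrophil and monocyte lists were 1.21, 2.58 and 1.27, and 0.70, 1.68 and 0.21 without PP-MP 1. Dendritic cell markers overlapped, at 4.18 to 5.01 CPM in PP-MP and 3.39 to 6.60 CPM in control livers, 3 of 4 tested ones higher. Of 7 B cell markers 6 had lower fitted values (median −0.80, and −0.43 without control 2). Ighm was the exception, with 34138, 5251 and 96 counts in PP-MP 1, 2 and 3 and 64, 68 and 94 counts in control 1, 2 and 3, and B cell sums were 345, 68.4 and 7.35 CPM in PP-MP 1, 2 and 3, against 9.86 to 23.2 CPM in control livers. Plasma cell and platelet sums overlapped between diets, at 4.66 to 47.7 and 4.04 to 10.3 CPM in PP-MP and 13.9 to 44.6 and 4.12 to 5.39 CPM in control livers. Sinusoidal endothelial markers summed to 51.4 to 90.9 CPM in PP-MP and 58.5 to 72.2 CPM in control livers. With edgeR 0 genes of these lists of other cells passed. DESeq2 called 2 of 6 Kupffer cell, 1 of 5 neutrophil, 1 of 7 B cell and 1 of 3 tested plasma cell genes. It also called 1 of 5 hepatocyte genes, and all these calls were higher, beside 2.39% of all genes. In the other lists it called 0. The part of these cell types, and of the high 18S ribosomal RNA share of control 2, in the marker values was not tested.

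Set against Ptprc within each library, a ratio that library scaling hardly touches, the 10 markers had a median log2 ratio of −4.59, −3.92 and −2.88 in PP-MP 1, 2 and 3, and of −2.26, −3.44 and −2.37 in control 1, 2 and 3. The groups did not overlap for 1 of 10, Trbc2, against 1.92% of all genes tested in that direction. PP-MP 1, with the most Ptprc, had the lowest median ratio, and control 2, whose Ptprc was second highest, the lowest among control libraries. All 10 ratios share the Ptprc value of their library.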

How the data were processed

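Liver RNA of 6 samples (3 PP-MP, 3 control) was analysed from raw read counts per gene symbol that the authors deposited as 1 table. The 6 deposited per-sample files of counts were identical to their columns. Per the labels' protocols, libraries were directional and made from poly(A) RNA. Per the submitters' processing notes, bcl2fastq and the genome build GRCm39 were used. The sources used here do not name the aligner, counting tool, strand setting or annotation.

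Low counts were removed with filterByExpr, TMM factors set the scale, and the robust quasi-likelihood test of edgeR 4.0.16 (R 4.3.3) was run unpaired. Benjamini-Hochberg adjustment covered 18284 genes, and the threshold was 0.05. Intervals are 95%. Log2 CPM used a prior count of 2. Replicates differed beyond sampling noise (154 to 928 chi-square units for each degree of freedom). The procedure was tested on simulated data. Markers and lists were chosen with earlier results of these data known, and so support nothing by their direction. Named by rule were the 10 markers, the 4 tested genes of smallest p per list, Ptprc, the 6 closest correlates (unnamed gene models and pseudogenes left out) and the 3 leading Trbv segments. Cxcl11 and Cxcl9 fall under this rule, while Ighm, Ly6g, Trbv29, Trav11 and Trav11d were added after their values were seen. Genes listed at 0 counts were named for that, and 1 gene under the rule is not reported here. Lengths, overlaps and sequences come from GENCODE M21 (GRCm38), so no coordinates are given.

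Alternatives were DESeq2 size factors, library totals, no filter, a mean CPM of at least 1, DESeq2 1.42.0, limma-voom (limma 3.58.1), a replicate block, omission of ribosomal RNA genes and of each library, control 2 and PP-MP 1 together, and, added after seeing the data, summed Trbc1 and Trbc2. Python 3.11.15, pandas 2.3.3, SciPy 1.17.1, statsmodels 0.14.6 and matplotlib 3.10.9 made tables and figures.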

Additional observations from a re-analysis of the deposited data

How the results depend on the processing

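None of the 10 markers passed the threshold under any alternative run. Of 151 marker values under alternatives 147 kept their direction, and 4 turned: Trbc1 to 0.09 without control 3, Cd3g to 0.08 without control 2 and to 0.02 without control 2 and PP-MP 1 together, and Nkg7 to 0.02 with library totals. These alternatives refit the same libraries or most of them, so they are not independent. With Trbc1 and Trbc2 summed, the other markers repeated their main values and could hardly turn. Over single left-out libraries Trbc1 ran from −1.32 to 0.09 and Cd3g from −0.54 to 0.08. The marker median ran from −0.80 (without PP-MP 1) to −0.38 over left-out libraries. Medians of the lymphocyte and pan-leukocyte lists that turned without 1 library are given with each list. Among lists of other cells, the platelet median was 0.79, and −0.16 without PP-MP 1. The plasma cell median was −0.49, and 0.18 without PP-MP 2 and 0.03 without PP-MP 3. Dendritic cell and sinusoidal endothelial medians were 0.38 and 0.29, and shrank to 0.16 (without control 1) and 0.12 (without PP-MP 2). The hepatocyte median was 0.02, and −0.04 without PP-MP 3. A mean CPM of at least 1 left 3 markers in the test. Over all genes, calls numbered 777 with DESeq2, 1 with library totals, 1 with limma-voom, 0 with the replicate block and 0 to 92 (without control 2) over left-out libraries, against 2, and the cause was not tested. Replicate numbers gave no sign of pairing (correlations of deviations −0.0662, −0.0872 and 0.047), and with the replicate block the marker median was −0.57 with 0 markers called. Precision was limited: half-widths of the 95% intervals had a median of 0.94 (log2) over the markers, beside 0.73 over all genes tested. These widths hold the spread between samples as well as counting error.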
